A study of Mus musculus with 2 samples.

Results

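The 10 genes described here are 7 immediate early genes (Fos, Fosb, Jun, Junb, Jund, Egr1 and Atf3) and 3 heat-shock genes (Hspa1a, Hspa1b and Dnajb1), read together as a view of the stress that cells undergo when a tumour is taken apart. They were picked by name, 10 of the 32285 genes counted, and all 10 were found once. Their unique molecular identifiers (UMIs, counted transcript molecules) were summed over the cells of each class and divided by all UMIs of that class and library and multiplied by 1000000 (CPM).

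The beta-elemene group consisted of tumours from mice that received beta-elemene, a plant sesquiterpene, by intraperitoneal injection each day at 30 mg/kg for 18 days. The vehicle group received the same volume of saline over the same period. All mice of both groups carried 4T1 cells, a mouse mammary carcinoma line widely used as a model of triple-negative breast cancer, injected with Matrigel into the mammary fat pad, and were assigned to the groups at random. Tumours were dissociated with an enzyme kit, strained, freed of red blood cells and run through droplet 3′ sequencing. Each group has 1 library, so no difference between the groups has a replicate or a test, and every interval below covers counting error only. The strain, age and sex of the mice and the number of mice behind each library are not given in the sources used here.

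Immediate early genes encode transcription factors whose transcripts appear within minutes of a stimulus without new protein synthesis, and they include the Fos and Jun proteins that pair to form AP-1. Heat-shock genes encode chaperones that heat-shock factor switches on when proteins misfold. Both programmes are known to be switched on by warm enzymatic dissociation, and they also run in growing, inflamed and oxygen-poor tissue, so a level in dissociated cells does not say which of these it reflects.

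The beta-elemene library held 11539 barcodes with a median of 9682 UMIs and the vehicle library 11324 with a median of 11878.5, and 37 barcodes occurred in both. After filtering, 10546 beta-elemene and 10465 vehicle cells were clustered with the 10 genes left out, and clusters were named from marker genes. Classes were compared where both libraries had 100 cells or more. These 9 were malignant-like (3313 beta-elemene and 4107 vehicle cells), macrophage-like (2284 and 2006), neutrophil-like (1777 and 1124), fibroblast-like (647 and 655), T/NK-like (642 and 589), monocyte-like (558 and 483), endothelial-like (195 and 197) and dendritic-like (135 and 135), plus a myeloid cluster called Arg1/Mmp12 after its leading genes (776 and 912). All 9 epithelial keratin, cadherin and claudin markers were highest in malignant-like cells in both libraries. Of the 7 monocyte markers, only 5 in the beta-elemene and 3 in the vehicle library were highest in the class of that name. Free RNA was estimated from transcripts of other cell types and amounted to 3.30% to 15.9% of UMIs per class in the beta-elemene library and 3.83% to 12.3% in the vehicle library.

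Immediate early transcripts were most abundant in fibroblast-like, malignant-like and neutrophil-like cells and least abundant in T/NK-like cells. The 7 genes together reached 6166 CPM in fibroblast-like cells of the beta-elemene library and 5998 CPM in those of the vehicle library. Malignant-like cells held 5989 CPM with beta-elemene and 6720 CPM with vehicle. Neutrophil-like cells followed at 5595 and 4739 CPM in the beta-elemene and vehicle libraries, and T/NK-like cells were last at 2061 and 1905 CPM. The same 3 classes led and the same class was last in both libraries, with fibroblast-like and malignant-like cells in exchanged places at the top. Pericyte-like cells, too few to compare with 47 beta-elemene and 45 vehicle cells, stood above all 9 classes at 10285 and 7718 CPM.

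Fos, which pairs with Jun proteins in AP-1, lies on chr12:85473890-85477273 (mm10, plus strand). Jun lies at chr4:95049034-95052222 and Atf3 at chr1:191170296-191218039, both on the minus strand. Fos levels in the beta-elemene library ran from 1457 CPM in fibroblast-like cells and 1228 CPM in malignant-like cells down to 113 CPM in T/NK-like cells. In the vehicle library they ran from 1407 CPM in malignant-like cells and 1365 CPM in fibroblast-like cells down to 103.4 CPM in T/NK-like cells. This spread was 12.8-fold with beta-elemene and 13.6-fold with vehicle. The lower end is close to the background: free RNA alone would give 65.1 CPM of Fos in T/NK-like cells with beta-elemene and 83.6 CPM with vehicle.

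Fosb, a Fos relative that also pairs with Jun proteins, was again highest in fibroblast-like cells, at 669 CPM with beta-elemene and 712 CPM with vehicle. Unlike Fos, it was lowest in neutrophil-like cells, at 87.2 CPM with beta-elemene and 98.7 CPM with vehicle. Free RNA would account for 48.5% of that level in the beta-elemene library and 49.8% in the vehicle library. Neutrophil-like cells ranked last for Fosb but next to highest for Egr1 in both libraries.

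Jun, the central partner of AP-1, followed one order in both libraries, from fibroblast-like over malignant-like and endothelial-like to neutrophil-like cells. Its levels were 1169, 1026, 754 and 609 CPM in these classes with beta-elemene. With vehicle they were 1191, 1091, 913 and 464 CPM. T/NK-like cells were lowest, at 109 CPM with beta-elemene and 115 CPM with vehicle, values that overlapped those of dendritic-like cells with vehicle (133 CPM) within counting error.

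Egr1, a zinc-finger factor that answers growth factor signals, had the widest spread of the 7 as measured, at 17.1-fold with beta-elemene and 19.8-fold with vehicle. With free RNA subtracted this order changed: Egr1 then spread 25.5-fold with beta-elemene and 58.9-fold with vehicle, Fos 26.7-fold and 68.1-fold, and Atf3 25.1-fold and 73.3-fold. It stood at 1001 CPM in fibroblast-like cells of the beta-elemene library and 1142 CPM in those of the vehicle library. Neutrophil-like cells came next at 634 CPM with beta-elemene and 600 CPM with vehicle, above malignant-like cells at 311 and 466 CPM. The myeloid classes other than neutrophils were at or under 181 CPM with beta-elemene and 200 CPM with vehicle.

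Atf3, a stress-induced member of the ATF and CREB family that can repress its targets, was highest in malignant-like cells at 651 CPM with beta-elemene and 904 CPM with vehicle. Fibroblast-like cells, first for Fosb, Jun and Egr1 in both libraries, were next to last for Atf3 at 214 CPM with beta-elemene and 205 CPM with vehicle, of which free RNA would give 38.1% and 39.2%. T/NK-like cells held 56.9 CPM with beta-elemene and 59.4 CPM with vehicle, of which free RNA would give 55.8% and 80.0%.

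Junb and Jund departed from the other 5. Junb, an AP-1 subunit strongly expressed in myeloid cells, was highest in neutrophil-like cells at 2523 CPM with beta-elemene and 2194 CPM with vehicle, followed by monocyte-like cells at 1518 and 1519 CPM. It was lowest in endothelial-like cells at 711 CPM with beta-elemene and 664 CPM with vehicle, a spread of 3.55-fold and 3.30-fold. Jund, the most constitutive of the Jun genes, spread 2.61-fold with beta-elemene and 3.17-fold with vehicle. Malignant-like cells led for Jund at 1025 and 921 CPM, and the Arg1/Mmp12 cells were last at 392.1 and 290 CPM in the beta-elemene and vehicle libraries.

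**Figure D1:**
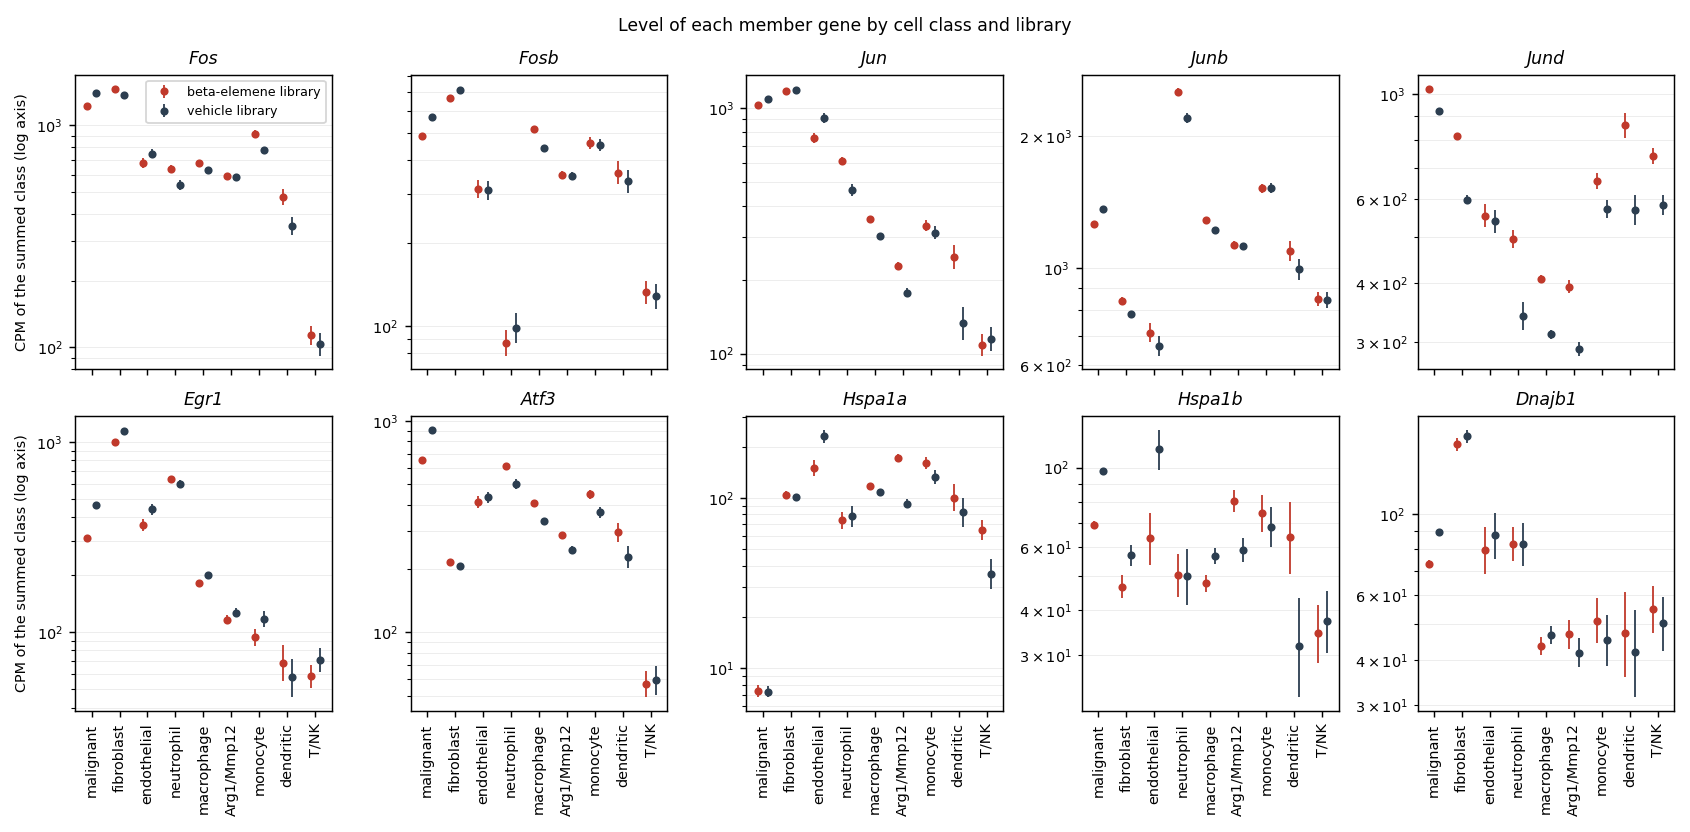
Level of each of the 10 genes in CPM (log axis) in the 9 classes, red for the beta-elemene library and dark blue for the vehicle library, with exact Poisson 95% intervals for counting error. Fos, Jun and Atf3 are lowest in T/NK-like cells in both libraries, while Hspa1a is lowest, at 7.35 CPM with beta-elemene and 7.27 CPM with vehicle in malignant-like cells.

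Within a class the 7 genes differed widely between sub-clusters. A sub-cluster of the malignant-like class led by Ptn, Prlr and Cited1 (40 beta-elemene and 69 vehicle cells) held 15997 CPM of the 7 genes with beta-elemene and 14801 CPM with vehicle. Another, led by Cdk8, Cmss1 and Cycs (110 and 70 cells), held only 401 CPM with beta-elemene and 475 CPM with vehicle. Cdk8 was also among the leading genes of a shallow malignant-like cluster, with a median of 2962 UMIs per cell. The part of depth in this low level was not tested. Ptn, Prlr and Cited1 are also made by normal mammary epithelium, and whether these are 4T1 cells was not tested. Among macrophage-like cells, the sub-cluster led by Lyve1 and Cd163, genes of resident macrophages (371 beta-elemene and 420 vehicle cells), reached 6924 CPM with beta-elemene and 5920 CPM with vehicle, against 3827 and 3439 CPM in the whole class.

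The genes varied together from cell to cell in some classes and not in others. As a description across cells, which share a library and differ in depth, the median Spearman correlation of the 21 pairs among the 7 genes was 0.64 with beta-elemene and 0.59 with vehicle in malignant-like cells. It was 0.57 and 0.59 in endothelial-like cells, and 0.51 and 0.50 in fibroblast-like cells, in the beta-elemene and vehicle libraries. Neutrophil-like cells, which hold many of these transcripts but few UMIs per cell (medians of 1983 with beta-elemene and 1910 with vehicle), showed 0.08 with beta-elemene and 0.05 with vehicle. The most closely linked pair in malignant-like cells was Fos with Atf3, at 0.77 with beta-elemene and 0.70 with vehicle.

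Fos, Jun and Atf3 varied together in malignant-like cells, but this does not single them out. All 21 pairs of the 7 genes were at 0.482 or above there with beta-elemene and 0.477 or above with vehicle. For Fos, Jun and Atf3 the 250 bases before the start sites are shown (RefSeq, GRCm38.p6, 5′ to 3′ on the gene's strand). Matches to cyclic AMP response elements and to a TATA box core are in capitals.
Fos (chr12:85473640-85473889, + strand): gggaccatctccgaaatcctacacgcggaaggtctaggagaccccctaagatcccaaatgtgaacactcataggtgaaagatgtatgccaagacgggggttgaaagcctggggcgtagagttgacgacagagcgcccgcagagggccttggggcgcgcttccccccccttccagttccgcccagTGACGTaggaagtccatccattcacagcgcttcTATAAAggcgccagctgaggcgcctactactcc
Jun (chr4:95052223-95052472, - strand): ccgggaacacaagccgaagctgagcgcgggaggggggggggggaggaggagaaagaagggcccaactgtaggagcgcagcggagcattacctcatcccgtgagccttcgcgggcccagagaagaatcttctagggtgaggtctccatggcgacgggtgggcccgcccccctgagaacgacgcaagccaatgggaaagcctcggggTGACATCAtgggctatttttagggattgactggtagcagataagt
Atf3 (chr1:191183334-191183583, - strand): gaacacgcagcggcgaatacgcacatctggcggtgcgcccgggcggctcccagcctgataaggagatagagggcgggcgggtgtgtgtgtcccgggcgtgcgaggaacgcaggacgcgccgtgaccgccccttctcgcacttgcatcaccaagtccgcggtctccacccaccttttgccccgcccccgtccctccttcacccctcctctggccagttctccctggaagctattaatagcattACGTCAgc
Counting the base before the start as position -1, Fos holds TGACGT from -66 and TATAAA from -33, Jun holds a TGACNTCA match from -45 and, not in capitals, GAANNTTC from -128, and Atf3 holds TGACGT on the other strand from -8. The searched motifs, on both strands, were TGACGT (which overlaps TGACNTCA; in 6.47% of 32851 RefSeq promoter windows), TGACNTCA (7.49%), TGANTCA (6.75%), GCGNGGGCG (4.70%), TATAAA (12.4%), GAANNTTC (6.69%), TTCNNGAA (7.17%) and the CArG box (1.47%). Of the other members in the table, Fosb matched GCGNGGGCG from -50, and Junb, Jund and Dnajb1 matched none. Egr1 had no entry used here. The Atf3 window precedes the RefSeq start and lies inside the wider GENCODE span of the gene. Such matches describe letters only.

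The 3 heat-shock genes followed another order. Together they reached 306 CPM in fibroblast-like cells with beta-elemene and 321 CPM with vehicle. Endothelial-like cells held 293 CPM with beta-elemene and 431 CPM with vehicle, the highest of that library, and Arg1/Mmp12 cells held 299 and 193 CPM. Malignant-like cells, near the top for immediate early genes, were last with beta-elemene at 149 CPM, close to T/NK-like cells at 155 CPM. With vehicle they were sixth of 9 at 194 CPM, close to Arg1/Mmp12 cells at 193 CPM. These ranks were not tested. Dnajb1, the co-chaperone that feeds clients to HSP70, was highest in fibroblast-like cells at 155 CPM with beta-elemene and 163 CPM with vehicle, and no other class passed 82.8 CPM with beta-elemene or 89.2 CPM with vehicle.

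**Figure D2:**
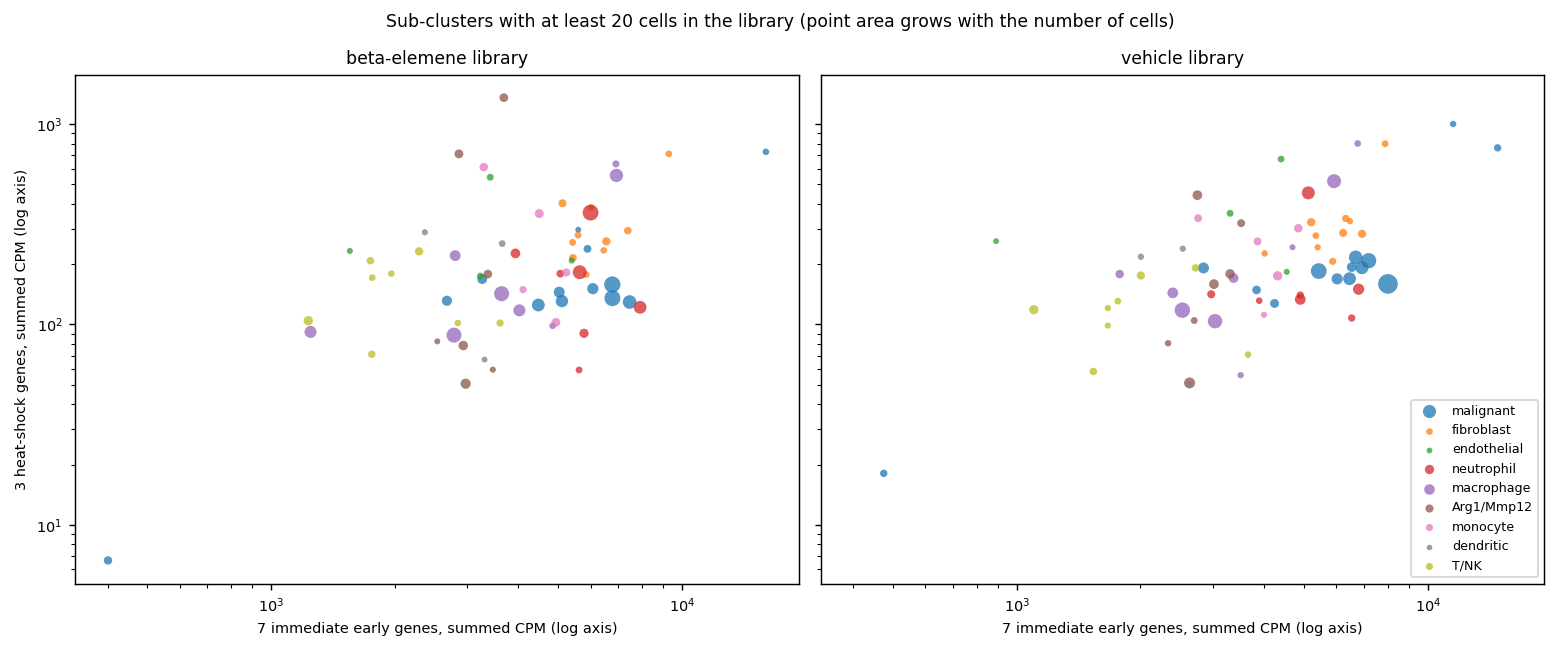
Summed CPM of the 7 immediate early genes (x axis, log) against that of the 3 heat-shock genes (y axis, log) for every sub-cluster with at least 20 cells in the library, the beta-elemene library on the left and the vehicle library on the right, coloured by class. A malignant-like sub-cluster stands at the lower left with 401 CPM of immediate early transcripts with beta-elemene and 475 CPM with vehicle, and an Arg1/Mmp12 sub-cluster stands highest on the left with 1355 CPM of heat-shock transcripts. Depth, which differs between sub-clusters, is not drawn.

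Hspa1a and Hspa1b, which encode the same kind of inducible HSP70 chaperone, parted in malignant-like cells. Hspa1a stood there at 7.35 CPM with beta-elemene and 7.27 CPM with vehicle, against 65.2 to 172 CPM in the other 8 classes with beta-elemene and 35.9 to 231 CPM with vehicle. Hspa1b stood at 69.2 CPM with beta-elemene and 97.7 CPM with vehicle in malignant-like cells, inside the range of the other classes (34.5 to 80.7 CPM and 31.9 to 112 CPM). Hspa1a therefore made up 9.61% of the UMIs of the pair in malignant-like cells with beta-elemene and 6.92% with vehicle. In the other 8 classes its share was 59.6% to 71.1% with beta-elemene and 49.0% to 72.1% with vehicle.

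Most of the Hspa1a of the malignant-like class lay in few cells. The class has 15 sub-clusters, and 3 small ones, grouped here after their values were seen and led by Ptn and Prlr, by Wfdc18 and Csn3, or by Acta2 and Tagln, held 313 CPM with beta-elemene (69 cells) and 309 CPM with vehicle (113 cells). In the other 12 sub-clusters Hspa1a was at 2.98 CPM with beta-elemene and 2.29 CPM with vehicle, and its share of the pair was 4.23% (exact 95% interval 3.71% to 4.79%) and 2.35% (2.05% to 2.69%). Free RNA would give 2.32 CPM of Hspa1a there with beta-elemene, below the counting interval of 2.61 to 3.38 CPM. With vehicle it would give 2.24 CPM, inside the interval of 1.99 to 2.62 CPM. In the 3 small sub-clusters the share was 62.5% with beta-elemene and 54.6% with vehicle, within the range of the other classes. Leaving out in addition the sub-cluster led by the neutrophil genes S100a9 and S100a8, Hspa1a stood at 1.997 CPM with beta-elemene and 1.83 CPM with vehicle, and the estimate of free RNA gave 2.008 and 1.83 CPM. With that sub-cluster also left out, Hspa1a was not detectable above free RNA at this depth in either library. In the same cells Hspa1b was at 65.6 CPM with beta-elemene and 94.8 CPM with vehicle, against a free RNA estimate of 2.12 and 3.17 CPM.

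The same contrast held cell by cell. Of malignant-like cells of the 12 large sub-clusters with at least 5 UMIs of Hspa1b, 26 of 341 (7.62%) held any Hspa1a UMI with beta-elemene and 25 of 563 (4.44%) with vehicle. Of macrophage-like cells with at least 5 UMIs of Hspa1b, 77 of 78 (98.7%) held any Hspa1a UMI with beta-elemene and 85 of 87 (97.7%) with vehicle. The median depth of that class was lower (10962.5 and 12768 UMIs, against 21019 and 20369 UMIs in the malignant-like class). Among all malignant-like cells of the 12 sub-clusters, 4.59% with beta-elemene and 4.28% with vehicle held an Hspa1a UMI.

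**Figure D3:**
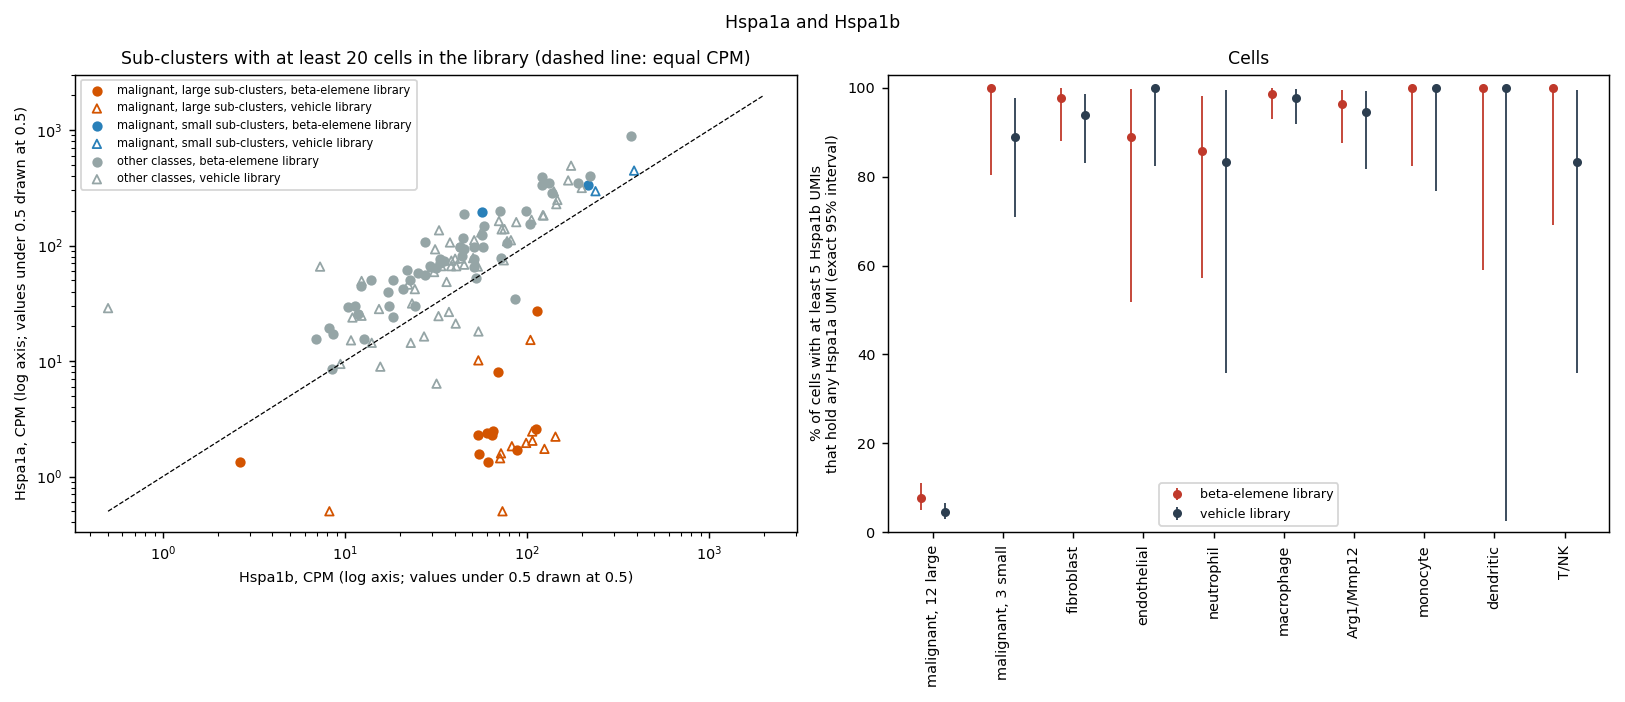
Left, Hspa1a against Hspa1b in CPM (log axes) for sub-clusters with at least 20 cells in the library, filled circles for the beta-elemene library and open triangles for the vehicle library; large malignant-like sub-clusters are orange, small ones blue and other classes grey, and values under 0.5 are drawn at 0.5. Right, share of cells with at least 5 Hspa1b UMIs that hold any Hspa1a UMI, with exact 95% binomial intervals, beta-elemene left of vehicle: the large malignant-like sub-clusters are at 7.62% and 4.44%, and every other class is at 83.3% or above. Some of these shares rest on few cells, with vehicle on 1 of 1 dendritic-like, 5 of 6 T/NK-like and 5 of 6 neutrophil-like cells.

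The genes lie side by side on the minus strand of chromosome 17, Hspa1a at chr17:34969190-34972156 and Hspa1b at chr17:34956436-34959238 (mm10), and their promoters are nearly the same. The 250 bases before each start are shown with the palindromic heat-shock element core GAANNTTC in capitals.
Hspa1a (chr17:34972157-34972406, - strand): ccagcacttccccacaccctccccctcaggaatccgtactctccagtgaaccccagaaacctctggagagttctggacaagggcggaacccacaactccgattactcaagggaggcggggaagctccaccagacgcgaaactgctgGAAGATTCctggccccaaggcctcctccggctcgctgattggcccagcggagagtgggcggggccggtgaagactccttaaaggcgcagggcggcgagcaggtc
Hspa1b (chr17:34959239-34959488, - strand): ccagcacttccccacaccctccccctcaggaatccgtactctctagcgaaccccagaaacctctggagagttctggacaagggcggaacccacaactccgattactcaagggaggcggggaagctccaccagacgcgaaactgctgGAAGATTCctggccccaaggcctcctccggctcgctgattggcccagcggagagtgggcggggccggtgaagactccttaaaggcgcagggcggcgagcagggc
The windows differ at 3 positions, C44T, T47C and T249G, with the Hspa1a base first and positions counted from 1 at the 5′ end, and the heat-shock core lies at -104 in both. Reads of near-identical genes can be assigned to the wrong copy or dropped. In the reference transcripts the coding parts share 82.3% of the 50-base stretches of Hspa1a and 82.2% of those of Hspa1b, but the last 500 bases, where 3′ libraries read most, share 0 of 451 such stretches. How the authors' counting treated shared reads is not given in the sources used here, so the values of each gene of the pair are uncertain to that extent.

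Between treatments, 7 of the 90 combinations of gene and class passed the call rule, a ratio of at least 1.5-fold with a 95% interval that excludes 1. Of these, 5 were higher and 2 lower with beta-elemene, against a background of 1.58% of all gene and class combinations called higher and 2.97% called lower. Hspa1a or Hspa1b made up 5 of the 7, and the others were Jun and Jund. The 7 immediate early genes had 2 calls in 63 combinations and the 3 heat-shock genes 5 in 27. The median log2 ratio over the 90 was 0.07, with 58 ratios above 1 and 32 below.

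**Figure D4:**
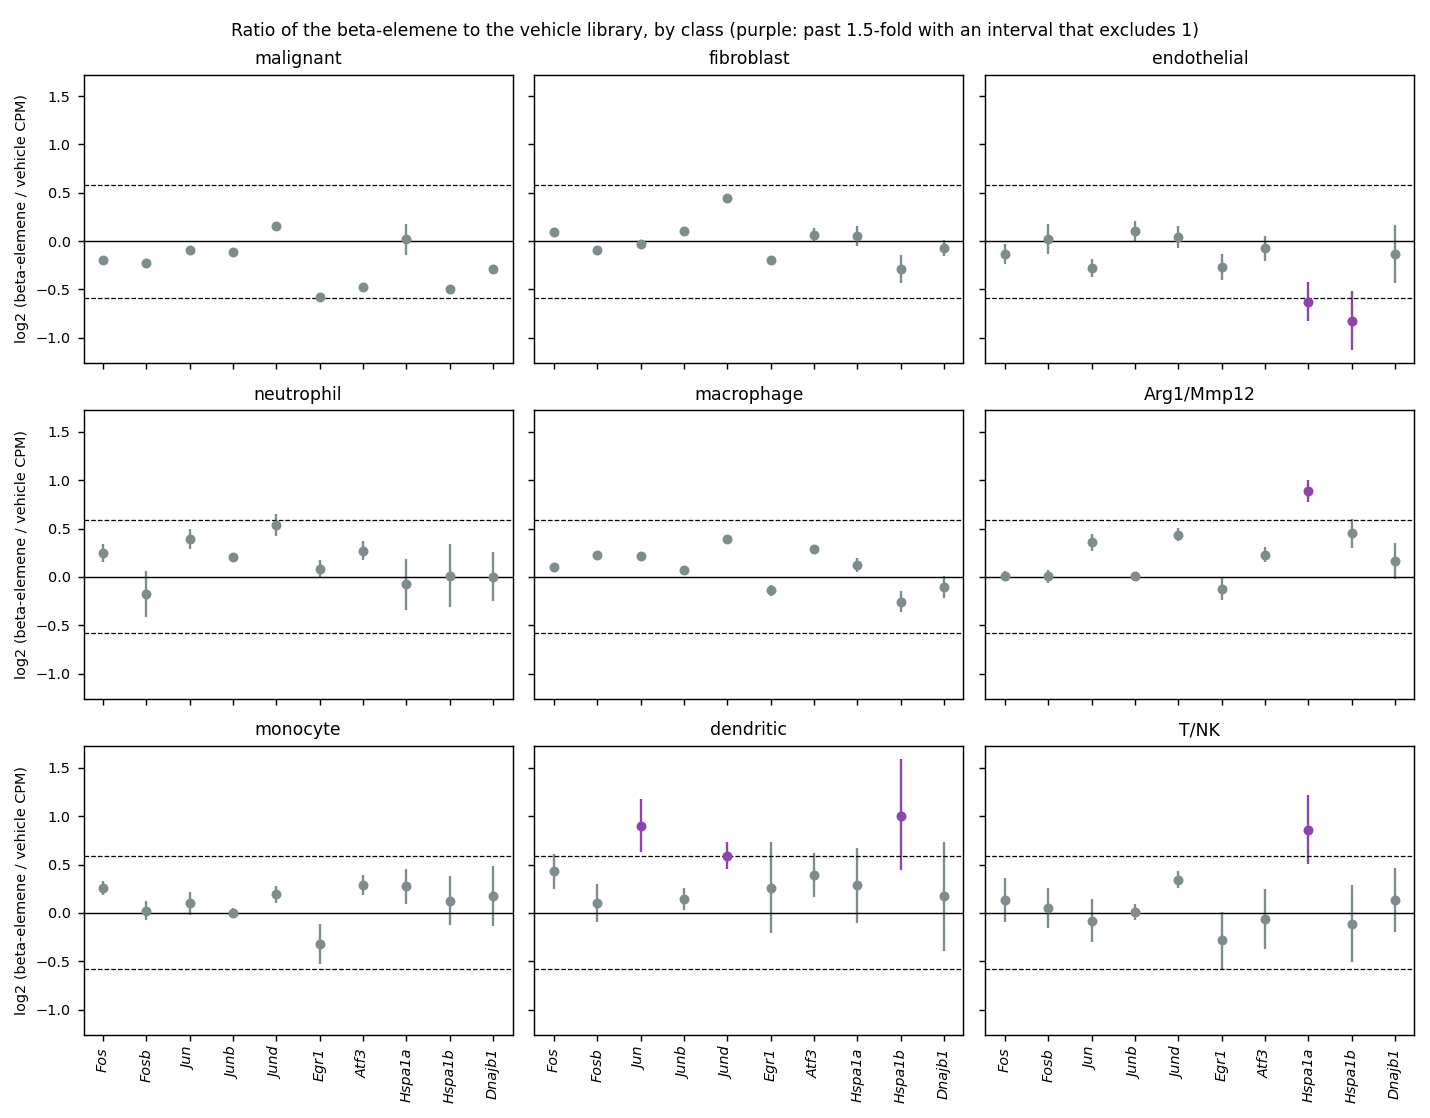
Log2 ratio of beta-elemene to vehicle CPM for each gene in the 9 classes, with exact 95% intervals for counting error. Purple points pass 1.5-fold (dashed lines) with an interval that excludes 1: Hspa1a and Hspa1b in endothelial-like cells below the lower line, and 5 points above the upper line in Arg1/Mmp12, dendritic-like and T/NK-like cells.

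Of the 3 heat-shock genes, Hspa1a was called higher with beta-elemene in the Arg1/Mmp12 cells. It stood at 172 CPM (1717 UMIs) with beta-elemene and 92.6 CPM (1050 UMIs) with vehicle, a ratio of 1.85 (1.72 to 2.005). Hspa1b was at 80.7 and 58.9 CPM, a ratio of 1.37, and Dnajb1 at 46.9 and 41.8 CPM, a ratio of 1.12. Neither of these was a call. In this class 1 of 10 genes was called higher and none lower, against 1.67% and 1.52% of all genes tested there.

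A single sub-cluster carried most of that difference. Cells led by Cxcl3, Inhba and Met (124 beta-elemene and 91 vehicle cells) held 898 CPM of Hspa1a with beta-elemene and 167 CPM with vehicle, and 372 and 106 CPM of Hspa1b. Without that sub-cluster the Hspa1a ratio of the class was 1.15 (1.05 to 1.26), no longer a call. Hspa1a was itself among the leading genes of the Cxcl3 sub-cluster, and that sub-cluster had a median of 6626 UMIs per cell, the lowest of the 7 in the class.

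In T/NK-like cells Hspa1a stood at 65.2 CPM (219 UMIs) with beta-elemene and 35.9 CPM (98 UMIs) with vehicle, a ratio of 1.81 (1.42 to 2.33), while Hspa1b was at 34.5 and 37.4 CPM, a ratio of 0.92. It was 1 call among 10 genes, against 2.0% of all genes called higher there and 2.43% called lower. The UMIs were concentrated: the top 1% of cells held 68.0% of them with beta-elemene and 55.1% with vehicle. A sub-cluster of 6 beta-elemene and 4 vehicle cells led by the macrophage genes Mrc1 and Ccl8 held 513 CPM with beta-elemene and 60.6 CPM with vehicle, and without it the ratio was 1.61 (1.249 to 2.08). As a mean over cells the ratio was 1.35 and with cells thinned to 1000 UMIs 1.38, no calls. The sub-cluster led by Ncr1 and Gzmc, genes of natural killer cells, showed 93.3 CPM with beta-elemene and 18.0 CPM with vehicle. It had the higher ratio of the 2 sub-clusters with enough UMIs to compare (1.56 and 5.18). Whether few cells carried this contrast was not tested.

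Endothelial-like cells went the other way for both HSP70 genes. Hspa1a was at 150 CPM (341 UMIs) with beta-elemene and 231 CPM (497 UMIs) with vehicle, a ratio of 0.647 (0.562 to 0.745). Hspa1b was at 63.6 CPM (145 UMIs) and 112 CPM (242 UMIs), a ratio of 0.565 (0.457 to 0.698), and Dnajb1 at 79.8 and 87.4 CPM, a ratio of 0.91. These were 2 of 10 genes called lower, against 1.9% of all genes tested in the class, and none was called higher, against 2.93%. The sub-clusters did not move alike. The 3 large enough to compare had Hspa1a ratios of 0.440, 0.916 and 1.257. The lowest was that led by Cxcl9, Prnd and Esm1, at 80.7 CPM with beta-elemene and 183 CPM with vehicle. The highest was that led by Lbp, Ackr1 and Selp, a venular pattern, at 96.7 and 76.9 CPM. Estimated free RNA was 10.9% of UMIs in this class with beta-elemene and 3.83% with vehicle, and with it subtracted the Hspa1a ratio was 0.674, just short of the limit. With called doublets kept it was 0.713 and as a mean over cells 0.803, also no calls. The epithelial keratin Krt8 was found in 24.6% of these cells with beta-elemene and 25.4% with vehicle, but at 87.3 and 26.0 CPM. Whether the transcripts counted as free RNA were spread evenly over the cells was not tested.

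Dendritic-like cells, the smallest class, had all 10 ratios above 1 as reported, and no share over all genes is given beside this count. Not all stayed there in other settings. Egr1, at 1.20 as reported, was called lower with called doublets kept (0.618) and with every barcode used (0.608). Atf3 was at 0.742 with thinned cells, and Hspa1a at 0.936 with at least 500 genes and at most 10% mitochondrial UMIs. Jun stood at 248 CPM (299 UMIs) with beta-elemene and 133 CPM (171 UMIs) with vehicle, a ratio of 1.87 (1.54 to 2.27). Free RNA would give 14.4% of the Jun level with beta-elemene and 56.3% with vehicle, and with it subtracted the ratio was 3.49. Jund was at 861 CPM (1037 UMIs) and 571 CPM (734 UMIs), a ratio of 1.51 (1.37 to 1.66), just inside the limit. Hspa1b was at 64.0 CPM (77 UMIs) and 31.9 CPM (41 UMIs), a ratio of 2.01 (1.36 to 3.005), while Hspa1a was at 101 and 82.5 CPM, a ratio of 1.22. These were 3 of 10 genes called higher, against 2.32% of all genes tested in the class, and none was called lower, against 5.3%. The class is mixed: a sub-cluster led by the B cell genes Bank1 and Ms4a1 had 12 beta-elemene and 3 vehicle cells, and without it Jund was at 1.47, no longer a call, and Jun at 1.67. The Jun call was also lost when called doublets were kept (1.10) or every barcode was used (1.08).

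In malignant-like cells no gene passed the rule, but 8 of 10 ratios lay below 1, with a median log2 ratio of -0.21 against -0.02 for all genes tested in the class. Egr1 was closest to the limit, at 311 CPM with beta-elemene and 466 CPM with vehicle, a ratio of 0.667 (0.657 to 0.678). It passed the same rule in 6 other settings, at 0.661 to 0.666, among them called doublets kept, every barcode used and free RNA subtracted. Hspa1b followed at 0.71, Atf3 at 0.72, Dnajb1 at 0.82, Fosb at 0.86, Fos at 0.873, Junb at 0.925 and Jun at 0.941. Over all genes of this class, 1.15% were called higher and 5.43% lower. Egr1 was lower with beta-elemene in all 11 sub-clusters with at least 25 cells in each library and 50 UMIs of the gene, at ratios between 0.546 and 0.997, and Atf3 in 11 of 12. The 7 genes together were lower in 10 of 12 sub-clusters. With cells split into 4 bins of mitochondrial share, their sum was lower with beta-elemene in bins 1 to 3. In bin 4, that of the highest share, it was 5277 CPM with beta-elemene and 4976 CPM with vehicle. Of the 7 genes, Jund was the exception over the whole class, at 1025 CPM with beta-elemene and 921 CPM with vehicle, a ratio of 1.11. The sub-clusters come from the same 2 libraries and are not replicates, and no share over all genes is given beside their counts.

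Jund was the only one of the 10 genes with a ratio above 1 in all 9 classes, from 1.03 in endothelial-like and 1.11 in malignant-like cells to 1.45 in neutrophil-like and 1.51 in dendritic-like cells. Of the 2609 genes tested in every class, 310 (11.9%) were above 1 in all of them, so 1 of the 10 genes here is near the share over all genes. In endothelial-like cells the direction turned with median-of-ratios scaling (0.98), TMM scaling (0.98) and 4 other settings. In the other 8 classes it stayed above 1 in all settings run. Among sub-clusters large enough to compare, it was above 1 in 7 of 7 Arg1/Mmp12, 8 of 8 T/NK-like, 10 of 10 fibroblast-like, 7 of 7 neutrophil-like, 2 of 2 dendritic-like, 11 of 12 malignant-like, 7 of 8 macrophage-like, 3 of 5 monocyte-like and 2 of 3 endothelial-like ones. Sub-clusters of the same 2 libraries are not replicates, and no share over all genes is given beside these counts.

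The remaining classes gave no call. Backgrounds in brackets are the shares of all genes called higher and lower. They are not shares of ratios above 1, which are not given here. The median log2 ratio over all genes tested was -0.013 in macrophage-like, -0.016 in neutrophil-like, -0.013 in monocyte-like and 0.051 in fibroblast-like cells. In macrophage-like cells, 7 of 10 ratios were above 1 (background 0.654% higher and 2.31% lower), led by Jund at 1.31, Atf3 at 1.22 and Fosb at 1.17, with Hspa1b lowest at 0.84. In neutrophil-like cells, 8 of 10 were above 1 (background 1.22% and 2.81%), led by Jund at 1.45 and Jun at 1.31, with Fosb lowest at 0.88. In monocyte-like cells, 8 of 10 were above 1 (background 1.74% and 2.16%), led by Atf3 at 1.22, with Egr1 lowest at 0.80. In fibroblast-like cells, 5 of 10 were above 1 (background 1.9% and 2.44%), led by Jund at 1.36, with Hspa1b lowest at 0.82.

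Genes of the same pathways, from lists chosen with earlier results of these data known, showed few calls, not all of which are named here. In malignant-like cells, 2 of 16 other immediate early factors were called lower and none higher, against 5.43% and 1.15% of all genes tested in the class, with a median log2 ratio of -0.24: Klf10, a TGF-beta responsive factor, at 111 CPM with beta-elemene and 185 CPM with vehicle (ratio 0.60), and Egr3 at 16.5 and 25.6 CPM (0.65). Of 14 feedback inhibitors, Dusp5 (0.585) and Dusp2 (0.64), phosphatases that switch off MAP kinases, were called lower there and none higher, beside the same 5.43% and 1.15%. None of 16 other heat-shock factor targets was called in malignant-like cells, and 2 of the 16 had a ratio above 1, with a median log2 ratio of -0.13. Egr3 was also lower in macrophage-like cells, at 17.8 CPM with beta-elemene and 32.4 CPM with vehicle, and in neutrophil-like cells, at 42.6 and 64.6 CPM. Of the other immediate early factors, 2 of 16 were called lower in macrophage-like cells (background 2.31%) and 2 of 12 in neutrophil-like cells (2.81%). Another 2 of 11 were lower in T/NK-like cells (2.43%) and 1 of 12 in endothelial-like cells (1.9%). In fibroblast-like cells 1 of 16 was called higher (1.9%).

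In dendritic-like cells, 4 of the 8 tested genes of the ATF4 and unfolded protein response list were called higher with beta-elemene and none lower, against 2.32% and 5.3% of all genes tested in the class. The endoplasmic reticulum chaperones Hsp90b1 stood at 1018 CPM with beta-elemene and 471 CPM with vehicle (ratio 2.16) and Hspa5 at 834 and 471 CPM (1.77). Sdf2l1, a partner of such chaperones, had a ratio of 2.18 and Ppp1r15a, a phosphatase subunit that restores translation after stress, 1.55. Dusp1 was higher in the same class at 201 and 117 CPM (1.72). The number of cells in the sub-cluster led by B cell genes, 12 and 3, moved with this result, and its part in it was not tested. In the other 8 classes this list had 1 call, Chac1 in malignant-like cells at 1.19 CPM with beta-elemene and 1.97 CPM with vehicle (0.61).

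The non-members whose pattern over the 18 points of class and library was most like each gene differed between the members. Over 5770 genes, with log2 of CPM plus 1, Fos was most like Cxcl1 (Pearson r of 0.92), Fosb like Chd9 (0.99), Jun like Id3 (0.93), Junb like H3f3b (0.95), Jund like Lsm1 (0.81), Egr1 like Tceal9 (0.95), Atf3 like Rab31 (0.89), Hspa1a like Pde8a (0.97), Hspa1b like Taok1 (0.74) and Dnajb1 like Phldb2 (0.93). Among members, Jun and Egr1 were at 0.90, Fos and Jun at 0.84, and Hspa1a and Hspa1b at -0.0017. These are descriptions: the points share 2 libraries, their depth and their free RNA.

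Levels also differed with depth inside a class. Splitting the Arg1/Mmp12 cells into 4 bins of UMIs per cell, the heat-shock sum was 1118 CPM with beta-elemene and 472 CPM with vehicle in the shallowest bin, and 158 and 114 CPM in the deepest. In malignant-like cells the heat-shock sum varied little between the bins, from 146 to 162 CPM with beta-elemene and from 180 to 207 CPM with vehicle. Their immediate early sum was lowest in the shallowest bin, at 4142 CPM with beta-elemene and 4601 CPM with vehicle, and lay between 6099 and 6132 CPM and between 6641 and 7010 CPM in the other 3. The median share of mitochondrial UMIs in malignant-like cells was 4.57% with beta-elemene and 4.42% with vehicle.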

How the data were processed

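Gene expression was measured in 2 libraries of tumour cells, 1 per group. The deposited values are raw UMI counts per gene and barcode, made by the authors with Cell Ranger 7.1.0 per the file headers, with STAR and the mm10 build named in the submitters' processing notes; further settings are not given in the sources used here. The authors' matrices hold no barcode under 500 UMIs. Cells with at least 200 genes and at most 20% mitochondrial UMIs were kept, which left 10861 beta-elemene and 10803 vehicle cells, and 315 and 338 called doublets were removed. Both libraries were clustered together with scanpy 1.11.5 and leidenalg 0.10.2 (2000 variable genes without the stress genes, 30 principal components, 15 neighbours, resolution 1.0, sub-clusters at 0.6), and clusters were named from marker lists; since names were rebuilt, classes are called by likeness. UMIs were summed per class and library. Cells of 1 library are not replicates, so no p-value was computed. Ratios of beta-elemene to vehicle have exact conditional Poisson 95% intervals and shares have exact binomial ones (scipy 1.17.1), which cover counting error only. In addition, a gene needed 100 UMIs over both libraries to be called. The ratio calculation was tested on simulated data. All 10 genes are described in every class, those called in detail. Companion genes are taken from those called in 5 lists, not all of which are named. The likest genes are those with the highest Pearson r over class levels. The members, lists and tests were chosen with earlier results of these data known. Free RNA was estimated from markers of other classes. Gene positions are from GENCODE M21 (mm10), in which 99.6% of gene IDs matched, and promoters from RefSeq (GRCm38.p6), with 9 of 10 members in the table. The alternatives tried concern clustering, filters, doublets, scaling, depth, free RNA, sub-clusters and limits. Pericyte-like and unnamed cells were not compared. A lower level can come from fewer cells of a kind within a class or less RNA per cell, which cannot be told apart in sums.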

Additional observations from a re-analysis of the deposited data

Results flagged for a closer look

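Ratios of beta-elemene to vehicle for the HSP70 genes went in opposite directions between classes. Hspa1a had a ratio of 1.85 in Arg1/Mmp12 cells and 1.81 in T/NK-like cells, but 0.647 in endothelial-like cells. Hspa1b had a ratio of 2.01 in dendritic-like cells, but 0.565 in endothelial-like cells. These pairs of classes were picked out because the gene passed the call rule upward in one and downward in the other. With 1 library per group the difference between classes was not tested.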

How the results depend on the processing

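Of 23 other settings, 17 were planned and 6, all concerning clusters left out or merged, were chosen after seeing the data. Of 2424 ratios recomputed, 2129 stayed within the counting interval of the reported value and 295 moved out of it. A reversal was counted only for the 7 reported calls, and 0 of these reversed. Other pairs could change side. Hspa1a in monocyte-like cells was called higher in 2 settings (1.55 and 2.17) and lower in 1 (0.540). Atf3 in T/NK-like cells was called higher in 1 (2.09) and lower in 1 (0.657). Egr1 in dendritic-like cells, at 1.20 as reported, was called lower in 2 (0.608 and 0.618). There were 5 higher calls as reported, and 3 with called doublets kept (2 of the reported 5, plus Hspa1a in monocyte-like cells), 3 with every barcode used (all reported), 3 with cells thinned to 1000 UMIs (2 reported, plus Hspa1a in monocyte-like cells) and 3 with a minimum of 400 UMIs (all reported). In the largest sub-cluster of each class alone, where 7 classes could be compared, there were 0 higher calls, and the 2 lower ones were Hspa1b in macrophage-like and Hspa1a in monocyte-like cells, neither of them reported. With free RNA subtracted there were 10 higher calls (5 reported) and with a lower fold limit 15 (5 reported). Of the 2 lower calls, 1 remained with the minimum of 400 UMIs and 0 with thinned cells, where the 1 lower call was Egr1 in endothelial-like cells. The lower fold limit gave 6 lower calls (2 reported). Lower calls numbered 3 in 4 settings, each of which called Egr1 in malignant-like cells. Both scalings left the counts at 5 and 2 and moved no class median by over 0.1 on the log2 scale. Hspa1a in Arg1/Mmp12 cells was called in 19 of 21 settings (ratios 1.07 to 2.37), Hspa1a in T/NK-like cells in 19 of 23 (1.35 to 2.04), Jun in dendritic-like cells in 19 of 22 (1.08 to 3.49), Jund there in 17 of 22 (1.46 to 1.79) and Hspa1b there in 20 of 22 (1.52 to 16.0, the last with thinned cells). In endothelial-like cells Hspa1a was called in 16 of 22 (0.618 to 0.882) and Hspa1b in 20 of 22 (0.539 to 0.663). The causes were not tested. With called doublets kept no Arg1/Mmp12 class formed, and at resolution 0.5 no monocyte-like class, so those values are missing. No paired analysis was possible because each group has 1 library, and no replicate could be left out. Counts of 41 to 121 UMIs in the dendritic-like HSP70 values limit their precision.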

Other observations

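Pericyte-like cells (47 beta-elemene and 45 vehicle cells) held 550 CPM of the 3 heat-shock genes with beta-elemene and 633 CPM with vehicle, above every compared class. Their Fos level was 2884 CPM with beta-elemene and 1896 CPM with vehicle. Among neutrophil-like cells, the sub-cluster led by the granule genes Camp and Ngp (19 beta-elemene and 18 vehicle cells) held 1018 CPM of the 7 immediate early genes with beta-elemene and 722 CPM with vehicle, against 7906 and 6793 CPM in the sub-cluster led by Entpd3 and Fgl2.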
